A study of Mus musculus with 6 samples.

Results

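The genes described here encode the enzymes of the citric acid cycle, the proteins that bring pyruvate into it and the enzymes that feed or drain its intermediates (anaplerosis and cataplerosis). All probe sets annotated to 1 of 38 listed genes were taken, together with the control probe sets for mouse pyruvate carboxylase that every array carries. This gave 77 probe sets for 36 of the 38 genes and 12 control values, out of 36899 probe sets and 15964 named genes in all. No probe set was matched to Mpc2 or Gls2. The study measured total RNA from cultured mouse CD8+ T cells of female P14 mice on the C57Bl/6 background, whose transgenic T cell receptor sees a viral peptide. Whole spleen and lymph node cells were given that peptide for 2 days, and then IL-15 or IL-2 for 7 more days. Cells kept in IL-15 were sorted for high levels of a surface marker and called central memory (CM), and cells kept in IL-2 were sorted for low levels of it and called effector/effector memory (E/EM). Both kinds therefore shared mouse strain, receptor and peptide step, and both are products of culture, not cells taken from an infected animal. Each kind was hybridised once to each of 3 array types, named SubA, SubB and SubC, whose probe sets differ, giving 6 arrays.

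Pyruvate made by glycolysis crosses the inner mitochondrial membrane through a carrier. The pyruvate dehydrogenase complex then turns it into acetyl-CoA, or pyruvate carboxylase turns it into oxaloacetate. Citrate synthase joins these products, and the cycle oxidises citrate stepwise back to oxaloacetate while reducing NAD and ubiquinone for respiration. Intermediates also leave the cycle for amino acid, lipid and glucose synthesis and are replaced from pyruvate, glutamate and branched-chain amino acids. In T cells, activation is known to raise glucose and glutamine use, and memory cells are known for their reliance on mitochondrial respiration.

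There were no replicates, so no test was possible, and every value describes these arrays. Ratios are CM over E/EM signal on the log2 scale, taken within 1 array type, and are below 0 where the CM signal was the weaker. A ratio was formed where both signals exceeded a floor, set from bacterial control probe sets at 31.28 (SubA), 88.12 (SubB) or 194.34 (SubC). A gene's value is the mean over its ratios, and its SD, over probe sets, is technical. A probe set above the floor in 1 kind of cell gave only a bound ("at least N-fold"). Over 32 control probe sets above the floor on all 6 arrays, the log2 ratio had a median SD of 0.24 between array types. The 6 actin and Gapdh control ratios of each type had medians of -0.08 for SubA, -0.16 for SubB and 0.24 for SubC. All 7 CD8 T cell markers were above the floor on both SubA arrays, with summed signals of 43151.2 in CM and 43158.7 in E/EM cells. Genes of other cells were also above the floor in both kinds: 4 of 4 B cell genes on the arrays, 5 of 6 macrophage, monocyte and neutrophil genes (all but Lyz2), 3 of 4 dendritic cell genes (all but Zbtb46), 1 of 2 helper T cell genes, 3 of 3 erythroid genes and 0 of 3 liver genes. Their SubA sums in CM and E/EM cells were 541.0 and 526.9 for B cells, 2797.8 and 2287.4 for macrophages, monocytes and neutrophils, 673.7 and 958.8 for dendritic cells, 151.5 and 288.8 for helper T cells, 237.9 and 226.3 for erythroid cells, and 56.3 and 107.1 for liver. Sums of different lists rest on different probe sets and are not comparable with each other, and genes within a list went opposite ways. Ctss, with 2362.3 and 1615.1, made up most of the macrophage sum, while Cd68 (-1.16), Cd14 (-0.63) and Csf3r (-0.50) had ratios below 0. Itgax had a log2 ratio of 1.596 against -1.29 for H2-Ab1. Cd4 had 1.42, while Zbtb7b, the other helper T cell gene, had 19.8 and 239.5 on SubA and 63.3 and 857.9 on SubB. The erythroid gene Slc4a1 had 324.9 and 689.0 on SubC, and the liver gene Ttr was above the floor in E/EM cells alone, at 69.8 on SubA. The part of other cells in the results was not tested. In such bulk RNA, fewer cells of a type and less RNA per cell cannot be told apart.

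Most of these genes had signals within 1.5-fold of each other in CM and E/EM cells. Of the 36 genes with probe sets, 34 had a ratio, Me1 had a bound and Got1 was under the floor in both kinds. Only Pck2 was at least 2-fold lower in CM cells, 1 of 34 (2.94%) against 5.61% of all named genes, and 0 were at least 2-fold higher, against 2.73%. At a 1.5-fold limit 3 were lower and 2 higher, against backgrounds of 13.9% and 10.1%, and 29 lay within it. Ratios were above 0 for 20 genes and below it for 14, and 49.7% of all named genes were above 0. The median was 0.13, beside -0.0025 over all named genes. These shares lie near or under the background, so the counts set the list apart in neither direction. The pyruvate carboxylase control probe sets are not part of these counts.

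**Figure D1:**
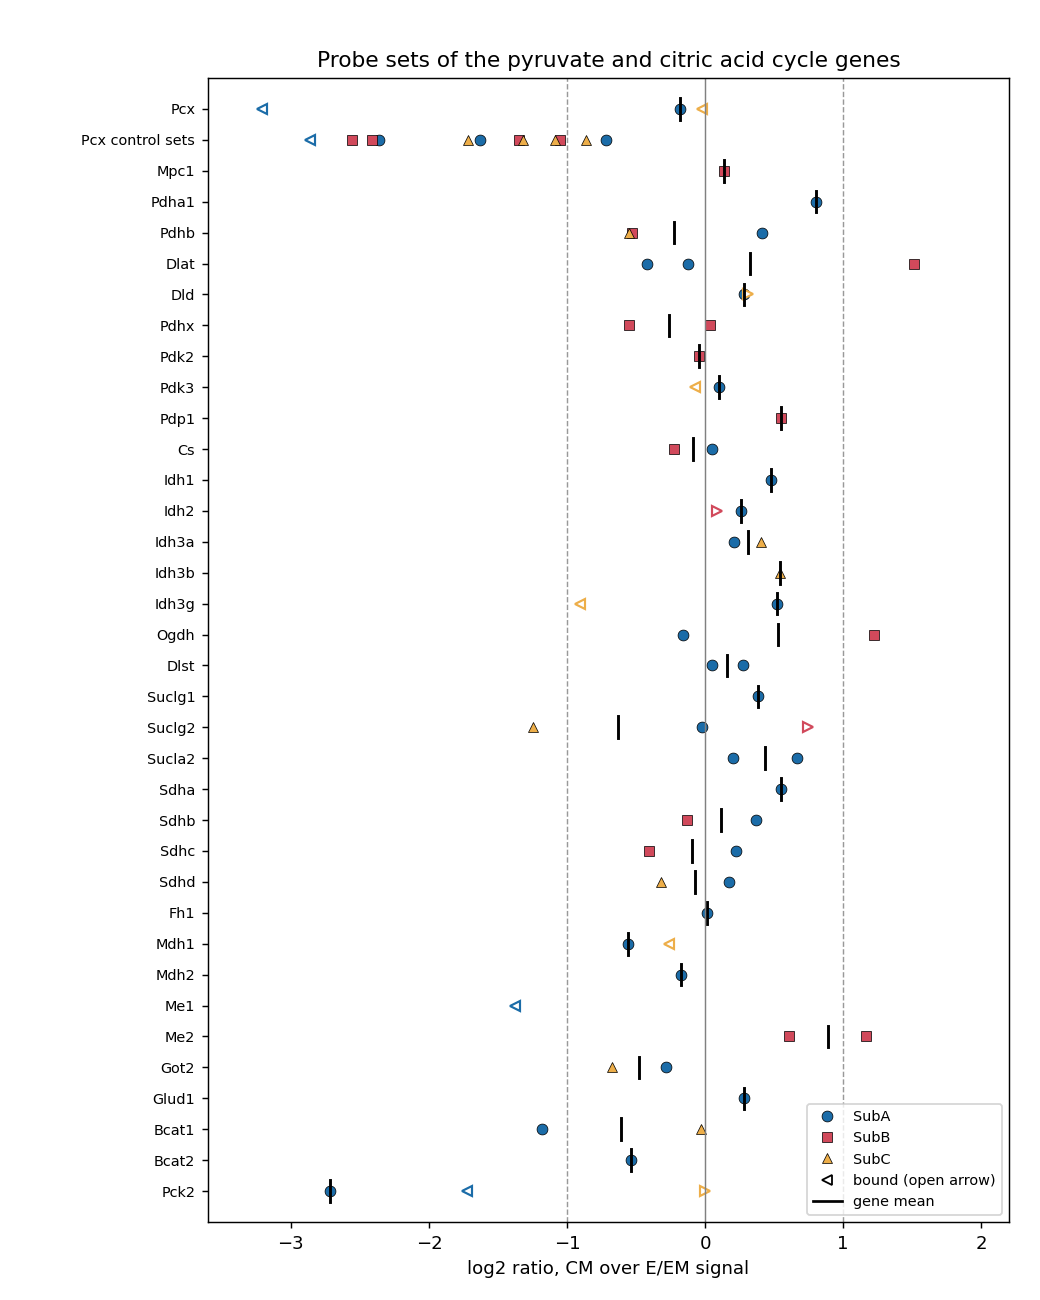
Log2 CM to E/EM ratio (horizontal axis) for every probe set of the 35 genes with a ratio or a bound and for the pyruvate carboxylase control sets; filled symbols are ratios by array type, open arrows are bounds, and black bars are gene means. Most symbols lie between the dashed 2-fold lines. Left of them lie Pck2 at -2.72, single sets of Suclg2 (-1.24) and Bcat1 (-1.18), and 9 of the 11 control ratios. The SubA bounds of Pck2, Pcx, Me1 and the MB control set also lie there. Single sets of Dlat (1.51), Ogdh (1.22) and Me2 (1.17) lie to the right. The remaining control ratios, at -0.72 and -0.86, lie between the lines.

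**Figure D2:**
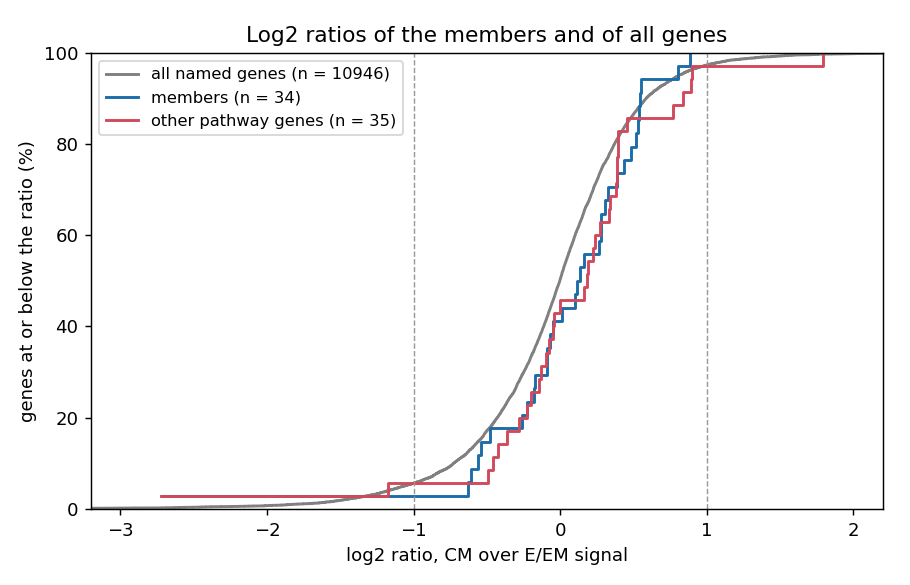
Cumulative share of genes (vertical axis, percent) at or below each log2 CM to E/EM ratio (horizontal axis) for 34 members, 35 other pathway genes and 10946 named genes; dashed lines mark 2-fold. The members' curve stays close to that of all genes, with medians of 0.13 and -0.0025, and holds 1 gene left of the 2-fold line and 0 right of it.

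The probe sets disagreed often enough to limit single values. Of 15 members with at least 2 ratios, the ratios had 1 sign in 7 and both signs in 8, and the median SD over probe sets was 0.40, beside 0.32 over 4094 named genes. A further 19 members rested on 1 ratio. The array types also differed. Ratios of member probe sets were above 0 for 20 of 31 on SubA (median 0.18), for 7 of 13 on SubB (median 0.03) and for 2 of 7 on SubC (median -0.32). The median over all probe sets was 0.02, -0.01 and -0.03 on the same types. The members' SubC ratios thus lay lowest, on the array type whose actin and Gapdh ratios lay highest. The cause was not tested.

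**Figure D3:**
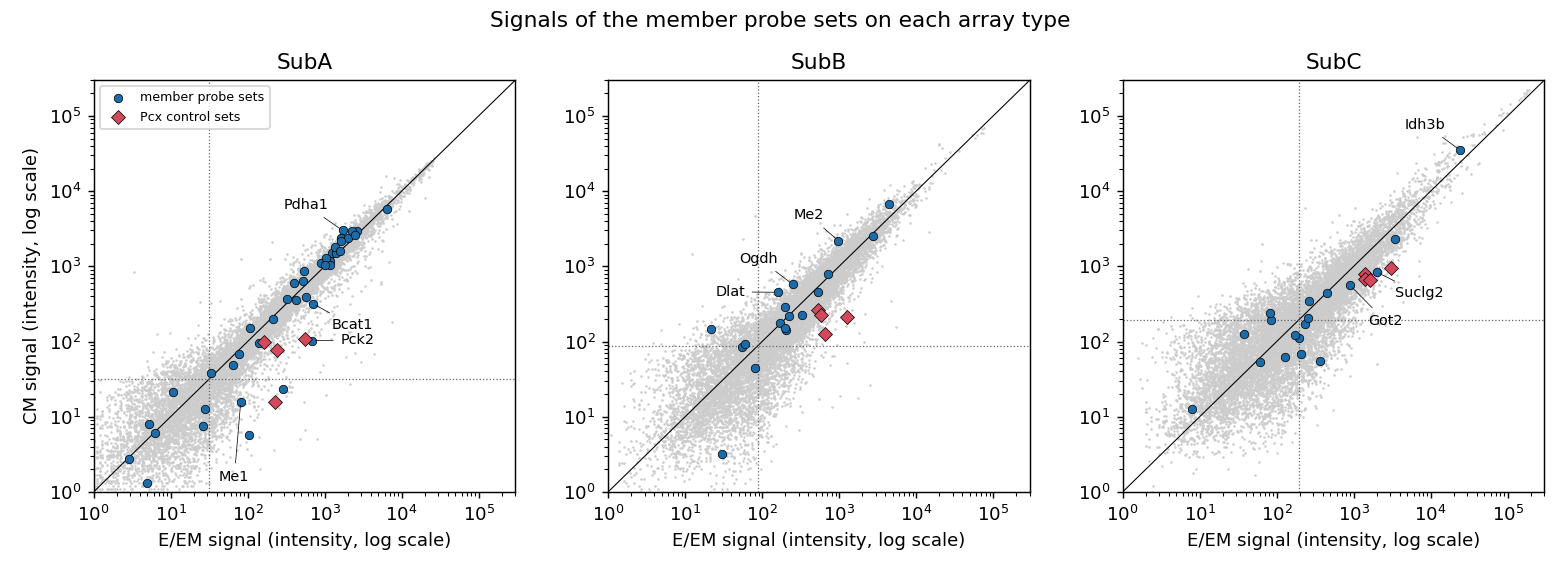
CM signal (vertical) against E/EM signal (horizontal), both intensities on log axes, for all probe sets (grey), member probe sets (blue) and pyruvate carboxylase control sets (red diamonds) on each array type; dotted lines mark the floor and the diagonal marks equal signals. Bright member probe sets lie close to the diagonal, and the 12 diamonds all lie under it.

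Pyruvate carboxylase (Pcx) makes oxaloacetate from pyruvate and so refills the cycle. Its transcript was the one measured most often, because 4 control probe sets for it, placed from the 5′ to the 3′ end, are present on every array type. On SubA the 3′ set had signals of 106.8 in CM and 550.2 in E/EM cells, and the 5′ set 98.2 and 161.7. On SubA the MA set had 77.5 and 239.7 and the MB set 15.8 and 227.7, where MA and MB are sets of the middle region. On all 4 sets of SubA the CM array was the lower one. On SubB the 3′ set had 214.6 and 1262.4, the 5′ set 259.6 and 538.2, the MA set 227.7 and 579.2, and the MB set 124.6 and 664.4. On SubC the 3′ set had 937.1 and 3087.5, the 5′ set 781.0 and 1419.4, the MA set 668.4 and 1418.2, and the MB set 660.8 and 1650.7. The CM signal was thus lower in 12 of 12 pairs. The 11 pairs with a ratio had a mean of -1.55 ± 0.65 (SD, n = 11 ratios), which is 2.93-fold lower in CM cells, and the remaining pair, MB on SubA, was at least 7.28-fold lower.

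On SubA these ratios had a mean of -1.57, while SubB gave -1.84 and SubC gave -1.25. At least 2-fold lower were 2 of 3 ratios from SubA, where 4.32% of all probe sets were. SubB had 4 of 4 (background 6.27%) and SubC 3 of 4 (background 8.08%). The 12 values share a target, and it is not stated that the arrays of 1 kind of cell had a common RNA preparation, so they are repeat readings and not replicates.

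**Figure D4:**
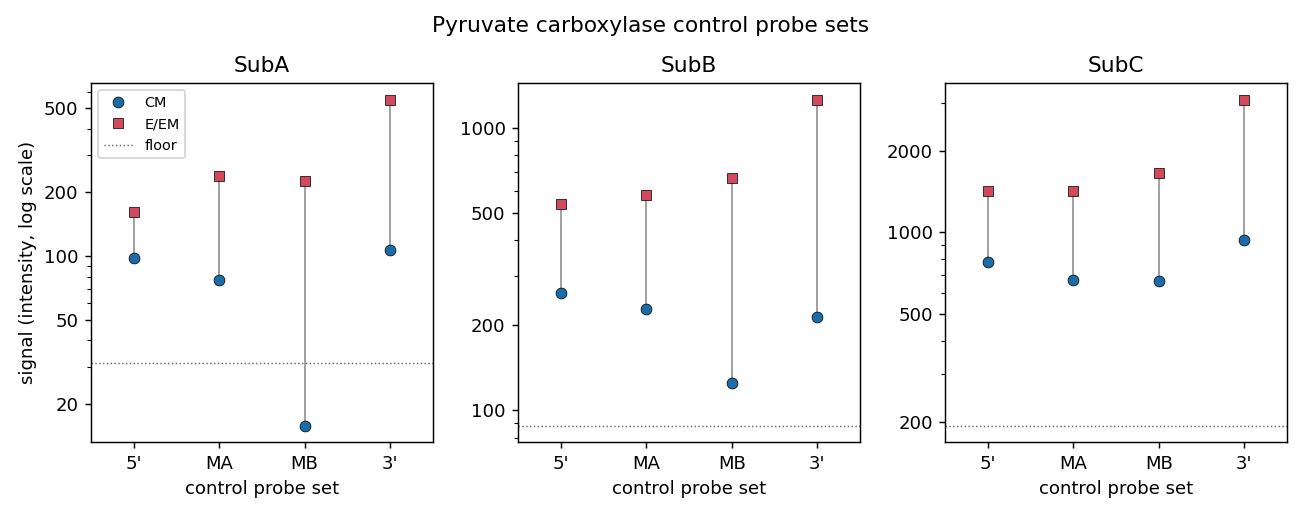
Signals (vertical, intensity on a log axis) of the 4 pyruvate carboxylase control probe sets in CM (blue circles) and E/EM cells (red squares) on each array type, with the floor as a dotted line. The CM signal is the lower one in all 12 pairs, and only MB on SubA falls under the floor.

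The size of the difference depended on where along the transcript it was read. The 3′ sets had log2 ratios of -2.37 (SubA), -2.56 (SubB) and -1.72 (SubC), and the 5′ sets -0.72, -1.05 and -0.86. The 3′ ratio was thus lower than the 5′ ratio by a log2 difference of -1.65, -1.505 and -0.86 on the 3 types. The same difference was near 0 for actin (-0.03, 0.09 and -0.01) and for Gapdh (-0.04, 0.11 and 0.03). For the transferrin receptor Tfrc, a control transcript with higher signals in CM cells, it was -0.38, -0.24 and -0.11. The direction held at both ends of Pcx, but no single fold describes it. Why the ends differ was not tested.

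**Figure D5:**
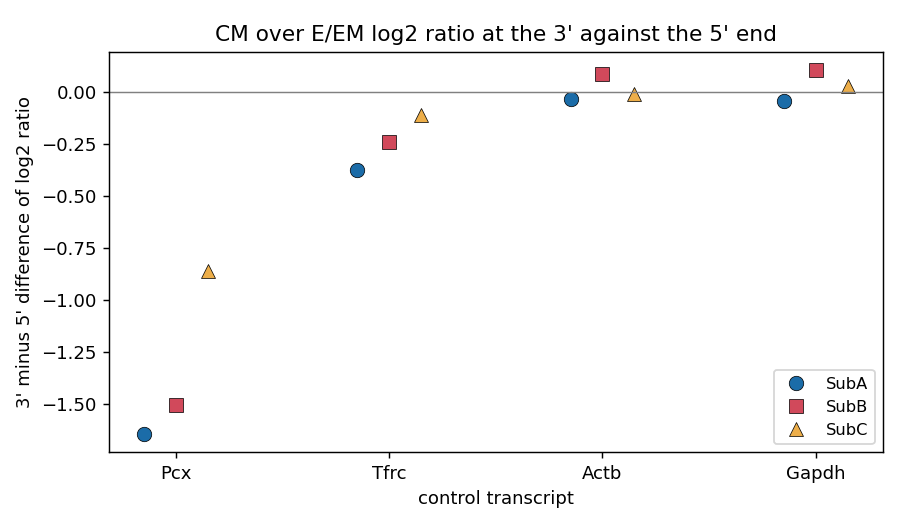
Difference between the log2 ratio at the 3′ end and that at the 5′ end (vertical) for 4 control transcripts (horizontal) on each array type. Pcx lies at -1.65, -1.505 and -0.86, farther from 0 than Tfrc, Actb and Gapdh on each type.

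The other Pcx probe sets were weak. A SubA set had 23.6 in CM and 289.1 in E/EM cells, at least 9.24-fold lower in CM cells. Another had 68.2 and 77.3, a log2 ratio of -0.18, and a SubC set had 111.2 and 197.2, which put it above the floor in E/EM cells alone and barely so. The names of all 3 sets mark them as shared with other sequences. Only the second gave a ratio, so the gene value of Pcx without control sets is its -0.18. With the control sets averaged in it was -1.44, and with the floor halved -1.54.

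The 250 bases before the start of Pcx are shown because this gene is the best measured of those lower in CM cells. RefSeq (GRCm38.p6) places its 2 starts on the plus strand, with windows at chr19:4510222-4510471 and chr19:4594069-4594318. Capitals mark CACGTG, the E-box, which is bound by factors such as MYC.
Pcx, first start: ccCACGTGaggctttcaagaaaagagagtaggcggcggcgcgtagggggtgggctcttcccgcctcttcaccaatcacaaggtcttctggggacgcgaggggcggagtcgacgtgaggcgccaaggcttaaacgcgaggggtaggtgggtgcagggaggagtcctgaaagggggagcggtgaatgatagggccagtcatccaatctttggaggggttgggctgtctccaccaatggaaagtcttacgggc
Pcx, second start: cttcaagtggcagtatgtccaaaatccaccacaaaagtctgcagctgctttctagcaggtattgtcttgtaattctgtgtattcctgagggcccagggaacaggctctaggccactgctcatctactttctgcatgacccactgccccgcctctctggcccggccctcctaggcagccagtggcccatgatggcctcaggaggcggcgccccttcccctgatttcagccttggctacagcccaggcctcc
The E-box stands at the far end of the first window, 248 bases before the start, and is not in the second. It was found in 3 of 33 members with a window (Ogdh, Pcx and Pdk2), or 9.09%, and in 6.86% of 27025 genes.

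Mpc1, a subunit of the mitochondrial pyruvate carrier, had 787.0 in CM and 716.1 in E/EM cells on SubB, a log2 ratio of 0.14. That set is marked as shared with other sequences, and a second set on SubA was under the floor. In the pyruvate dehydrogenase complex, which commits pyruvate to acetyl-CoA, Pdha1 stood highest. Pdha1 encodes the catalytic subunit that is switched off by phosphorylation, and its only set had 2999.3 and 1715.5, 1.75-fold higher in CM cells (log2 ratio 0.81). It was 1 of 2 members at least 1.5-fold higher.

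The partner subunits gave no shared direction. Pdhb, the other chain of the same enzyme, had 2169.7 and 1633.2 on SubA. Its SubB set had 141.0 and 203.1, and its SubC set 2337.9 and 3427.5. Only its SubA set was higher in CM cells, so its mean of -0.22 ± 0.55 (SD, 3 probe sets) has no settled sign, and SubA alone gave 0.41. Dlat, the acetyltransferase core, had 49.0 and 65.5 and 199.1 and 216.6 on SubA against 452.1 and 158.4 on SubB. Its mean of 0.32 ± 1.04 (SD, 3 probe sets) thus rested on the SubB set, whose weaker signal was 1.80 times the floor. Dld, the dehydrogenase shared with the oxoglutarate complex, had 1282.5 and 1055.9 on SubA (0.28). Pdhx, the structural binding protein, had 227.3 and 332.4 in 1 set and 176.7 and 172.7 in the other, a mean of -0.26 ± 0.41 (SD, 2 probe sets).

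Of the enzymes that regulate the complex, the phosphatase subunit Pdp1, which switches it on, had 287.1 in CM and 195.8 in E/EM cells (0.55). A further Pdp1 set had 45.0 and 80.7, both under the floor, and with the floor halved the mean became -0.15, so the direction depends on that setting. The inactivating kinases Pdk2 and Pdk3 had 219.4 and 226.5 (-0.05) and 1501.6 and 1400.6 (0.10). Neither ratio was larger than the 0.24 spread of control ratios between array types. A second Pdk3 set, on SubC, went the other way, with 69.1 and 204.6, at least 1.05-fold lower in CM cells.

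The 18 enzymes of the cycle itself all had a ratio. For 17 of them it lay within 1.5-fold, as for 8321 of all 10946 named genes. Ratios were above 0 for 12 and below for 6, beside 49.7% of named genes above 0, and the median was 0.21. Cs, citrate synthase at the entry of the cycle, had 2592.1 and 2499.3 on SubA and 457.3 and 534.7 on SubB. Its mean of -0.09 ± 0.20 (SD, 2 probe sets) is within its own spread of 0.

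All 5 genes of isocitrate dehydrogenases had ratios above 0, as did 49.7% of all named genes, with a median of 0.48 and none past 1.5-fold. Of these values, those of Idh1, Idh2 and Idh3g rested on 1 SubA set each, the array type on which 20 of 31 member ratios were above 0. Idh3a, Idh3b and Idh3g form the NAD-dependent enzyme of the cycle. Idh3g had 2353.4 in CM and 1643.9 in E/EM cells on SubA (0.52). Idh3b rested on a SubC set marked as shared, with 35026.1 and 24083.5 (0.54), a value that became 0.14 after quantile normalization. Idh3a had 371.0 and 321.2 on SubA and 344.6 and 259.7 on SubC, a mean of 0.31 ± 0.14 (SD, 2 probe sets). These 3 gene values thus had the same sign, but that of Idh3b came only from the shared set. The SubA set of Idh3b was under the floor in both kinds, with 7.5 and 26.5. The SubC ratio of Idh3a came from a set with a suffix that marks it as not fully specific. Another SubC set of Idh3a had 123.4 and 175.0, both under the floor, and with the floor halved the Idh3a value became 0.037. A further Idh3g set on SubC went the other way, with 55.9 and 364.5, at least 1.88-fold lower in CM cells. With signals under the floor set to it, the Idh3g value became -0.19.

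Idh1 and Idh2, the NADP-dependent enzymes of the cytosol and the mitochondrion, had 150.3 and 107.7 (0.48) and 638.4 and 531.8 (0.26) on SubA. A second Idh2 set on SubB had 93.7 and 60.2, above the floor in CM cells alone. The Idh2 ratio was close to the 0.24 spread of control ratios, and that of Idh1 was larger. That spread is between array types and leaves out disagreement between probe sets of a gene, whose median SD was 0.40 for the members.

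Ogdh and Dlst form the oxoglutarate dehydrogenase complex with Dld. Ogdh, its first enzyme, had 1048.4 and 1172.2 on SubA and 578.7 and 248.2 on SubB. The SubB set alone was 2.33-fold higher in CM cells, and the mean of 0.53 ± 0.98 (SD, 2 probe sets) has no settled sign. Dlst, the succinyltransferase core, had 1097.0 and 906.9 and 1036.5 and 1000.8, a mean of 0.16 ± 0.16 (SD, 2 probe sets).

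Succinyl-CoA ligase makes ATP or GTP as it releases succinate. Suclg1, the subunit common to both forms, had 1789.0 and 1369.5 (0.39). Sucla2, which gives the ATP-forming enzyme, had 867.1 and 546.3 in 1 SubA set and 38.5 and 33.4 in another, a mean of 0.44 ± 0.33 (SD, 2 probe sets). Both of these Sucla2 sets have a suffix that marks them as not fully specific. In the second, the weaker signal was only 1.07 times the floor. Suclg2, which gives the GTP-forming enzyme, had 1173.8 and 1189.9 on SubA and 839.4 and 1986.5 on SubC. A SubB set for Suclg2 had 148.0 and 21.9, at least 1.68-fold higher in CM cells. The Suclg2 mean of -0.63 ± 0.86 (SD, 2 probe sets) passes 1.5-fold only through its SubC set, and SubA alone gave -0.02. That SubC set has a suffix that marks it as not fully specific.

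Succinate dehydrogenase links the cycle to the respiratory chain. Sdha, the flavoprotein that oxidises succinate, had 591.4 and 404.9 on SubA (0.55). Sdhb, the iron-sulfur subunit, had 2961.0 and 2291.8 on SubA and 2530.1 and 2774.8 on SubB (mean 0.12 ± 0.36, SD, 2 probe sets). The membrane anchors Sdhc and Sdhd had 2372.8 and 2034.7, and 2934.4 and 2596.9, on SubA. Their second sets were weak and of opposite sign, with log2 ratios of -0.41 for Sdhc on SubB and -0.32 for Sdhd on SubC. The means of -0.09 ± 0.44 and -0.07 ± 0.35 (SD, 2 probe sets each) thus join ratios of 0.22 and 0.18 from bright sets with negative ratios from sets near the floor. On SubA, where 20 of 31 member ratios were above 0, all 4 subunits were higher in CM cells, from 0.18 to 0.55. The SubA set of Sdhb has a suffix that marks it as not fully specific, and without it Sdhb had -0.13.

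Fh1, fumarate hydratase, had 1579.3 in CM and 1563.0 in E/EM cells, a log2 ratio of 0.01. Mdh2, the mitochondrial malate dehydrogenase that closes the cycle, had 5811.3 and 6549.8 (-0.17). Mdh1, its cytosolic counterpart in the malate-aspartate shuttle, had 95.0 and 140.0 on SubA (-0.56), and a SubC set was above the floor in E/EM cells alone. A SubB set with 85.8 and 54.2, both under the floor, went the other way, and Mdh1 became -0.12 with the floor halved. Both malate dehydrogenases thus had lower signals in CM cells, Mdh2 by less than the control spread.

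The malic enzymes, which turn malate into pyruvate, lay on opposite sides. Me2, the mitochondrial NAD-dependent enzyme, had the highest mean of all members in the main setting. Its 2 SubB sets had 6668.3 and 4377.0, and 2193.6 and 976.4, with a mean of 0.89 ± 0.40 (SD, 2 probe sets), 1.85-fold higher in CM cells. These sets carry consecutive identifiers and the same gene, so they are not independent, and centring on the actin and Gapdh controls moved the mean to 1.05, past 2-fold. The weaker set has a suffix that marks it as not fully specific. Without it Me2 had 0.61, below the 0.81 of Pdha1. Me1, the cytosolic NADP-dependent enzyme that supplies reducing power for lipid synthesis, had 15.8 in CM and 81.4 in E/EM cells on SubA, at least 2.60-fold lower in CM cells. Bounds in that direction were common, and 16.6% of 1583 genes with a bound only were at least 2-fold lower in CM cells. The second Me1 set, on SubB, was under the floor in both kinds.

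The aminotransferases and glutamate dehydrogenase exchange carbon between the cycle and amino acids. Glud1, which turns glutamate into oxoglutarate, had 1525.2 and 1255.8 (0.28). Got2, the mitochondrial aspartate aminotransferase, had 353.4 and 429.7 on SubA and 559.8 and 894.8 on SubC, a mean of -0.48 ± 0.28 (SD, 2 probe sets). Both sets gave lower signals in CM cells, but both have a suffix that marks them as not fully specific. A further Got2 set was at 6.1 and 6.2, and the single Got1 set, for the cytosolic enzyme, at 2.7 and 2.9.

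The branched-chain aminotransferases start the breakdown of leucine, isoleucine and valine. Bcat1, the cytosolic enzyme, had 315.7 and 716.3 on SubA, 2.27-fold lower, and 440.6 and 449.4 on SubC, which leaves a mean of -0.61 ± 0.82 (SD, 2 probe sets). Bcat2, the mitochondrial enzyme, had 396.2 and 574.9 on SubA (-0.54), within 1.5-fold. The Bcat1 mean passed 1.5-fold only through its SubA set. On SubA alone, where the Bcat1 set was 10.1 times the floor, Bcat1 had -1.18 and joined Pck2 past 2-fold.

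Pck2, the mitochondrial phosphoenolpyruvate carboxykinase that draws oxaloacetate out of the cycle, had the lowest ratio of all members. On SubA its brightest set had 103.2 in CM and 679.0 in E/EM cells, a log2 ratio of -2.72 or 6.58-fold lower in CM cells. A second SubA set had 5.8 and 103.4, at least 3.31-fold lower. Its SubC set had 194.7 and 83.2, so that its CM signal barely exceeded the floor of 194.34 and its E/EM signal did not. Both SubA sets thus agreed in direction, while the SubC set went the other way, but only just above the floor. The second SubA set and the SubC set have a suffix that marks them as not fully specific. The ratio of Pck2 therefore rested on its brightest SubA set alone. With signals under the floor set to it, the mean over all 3 sets became -1.48. Pck1, the cytosolic enzyme of liver and kidney, was under the floor in both kinds of cells.

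Pck2 is known as a target of ATF4, a transcription factor of amino acid and endoplasmic reticulum stress that binds C/EBP-ATF composite elements. The bases before its start are shown for that reason, with those of Got1, the other member that holds the same letters. The windows are from RefSeq (GRCm38.p6), chr14:55540016-55540265 on the plus strand for Pck2 and chr19:43524606-43524855 on the minus strand for Got1. Capitals mark matches to TGATGNAA, searched on both strands, both of which are on the strand opposite to the gene.
Pck2: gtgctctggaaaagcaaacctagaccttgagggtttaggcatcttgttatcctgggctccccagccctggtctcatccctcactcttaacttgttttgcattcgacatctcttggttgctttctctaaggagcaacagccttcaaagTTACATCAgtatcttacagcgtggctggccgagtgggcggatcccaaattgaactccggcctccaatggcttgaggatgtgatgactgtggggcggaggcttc
Got1: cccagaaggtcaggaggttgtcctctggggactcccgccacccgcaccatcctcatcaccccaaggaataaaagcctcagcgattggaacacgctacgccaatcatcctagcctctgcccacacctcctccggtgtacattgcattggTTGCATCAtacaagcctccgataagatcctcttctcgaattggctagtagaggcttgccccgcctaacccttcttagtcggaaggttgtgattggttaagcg
The match begins 103 bases before the start in Pck2 and 102 in Got1. It was found in 2 of 33 members (6.06%) and in 3.91% of 27025 genes, so such letters are not rare and mark no site by themselves. Of these 2 genes only Pck2 gave a signal above the floor. Of the other motifs searched on both strands, TGACNNNGC, the core of the antioxidant response element, was in 4 members (Dlst, Idh3g, Mpc1 and Sucla2; 12.1%, against 11.5% of genes). CCGGAA, the core bound by ETS factors, was in 5 (Dld, Glud1, Idh3g, Mpc1 and Sdhd; 15.2%, against 13.6%), and GCGCATGC, bound by NRF1, was in 3 (Glud1, Ogdh and Sdhb; 9.09%, against 2.56%).

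Paired forms of an enzyme in different compartments or isoforms were set side by side. Idh1 and Idh2 had 0.48 and 0.26, Mdh1 and Mdh2 -0.56 and -0.17, Bcat1 and Bcat2 -0.61 and -0.54, and Pdk2 and Pdk3 -0.05 and 0.10. Each of these pairs differed by at most 0.39. Suclg2 and Sucla2, which give the GTP- and ATP-forming ligases, had -0.63 and 0.44, a difference of 1.07 that rests on the SubC set of Suclg2. That set and both Sucla2 sets with a ratio have a suffix that marks them as not fully specific. Me2 had 0.89 and Me1 a bound in the other direction.

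Among 45 other genes of these pathways, listed for their function, 41 had probe sets and 35 a ratio. Their median was 0.18, with 19 above 0 and 16 below. At least 2-fold lower in CM cells were 2 of 35 (5.71%, against 5.61% of all named genes) and at least 2-fold higher 1. Gpt2, the mitochondrial alanine aminotransferase that makes oxoglutarate from glutamate and pyruvate, had 91.9 in CM and 605.5 in E/EM cells on SubB. Its log2 ratio of -2.72 equals that of Pck2 to the second decimal, but its CM signal was barely above the floor. Ldhb, a lactate dehydrogenase subunit, had 44.3 and 99.9 on SubA (-1.17), with a CM signal near the floor of 31.28. A second Ldhb set was under the floor in both kinds. Ldha, the other subunit, had 16252.8 and 18647.3 (-0.20). Acss1, which makes acetyl-CoA from acetate in mitochondria, had 1345.1 and 387.6 on SubA (1.80), the largest ratio in the CM direction in either list.

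The next highest were Pdpr, the regulatory subunit of pyruvate dehydrogenase phosphatase, at 0.90 ± 0.16 (SD, 2 probe sets), the cytosolic acetyl-CoA synthetase Acss2 at 0.89 and the propionyl-CoA carboxylase chain Pccb at 0.84. Both Pdpr sets were higher in CM cells, with 911.0 and 450.6 and 634.0 and 367.5. The next lowest were Slc25a13, an aspartate-glutamate carrier, at -0.49 ± 0.11 (SD, 2 probe sets), the proton-pumping transhydrogenase Nnt at -0.46 and the dicarboxylate carrier Slc25a10 at -0.43 ± 0.66 (SD, 2 probe sets). Pdk1, the kinase induced by hypoxia, had 3912.3 and 3444.5 (0.18), and Pdk4 was above the floor in CM cells alone, by 1.15 times.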

How the data were processed

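RNA of 2 kinds of cultured T cells was put on 3 types of array, 1 array each, and samples were grouped by their titles. The deposited values are linear intensities per probe set, scaled by the authors so that the mean without the lowest and highest 2% of each array lies near 500 (500.1 to 500.3). The authors' software and detection calls were not given in the sources used here. No further normalization was applied. Symbols came from GEO's platform annotation, checked by Entrez identifier against RefSeq (GRCm38.p6); sets with more than 1 symbol, or with none, were left unnamed, and no build is named for them. Each table's floor was the higher 90th percentile, over its 2 arrays, of 15 bacterial poly-A control probe sets. Log2 ratios were computed here from the deposited intensities with Python 3.11.15, numpy 2.4.6 and pandas 2.3.3, and the calculation was tested on simulated data. A gene is described by size (2-fold, and 1.5-fold); with 1 array per group there is no p-value, and precision is limited by how many arrays there are. Markers, other pathway genes, motifs and members were chosen with earlier results of these data known. All members are described; of the other pathway genes, those past 2-fold and the next 3 in each direction are named, and others were picked by their values. Some genes of that list are not reported here. Alternatives tried were other normalizations, floors, probe set choices and array subsets.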

Additional observations from a re-analysis of the deposited data

How the results depend on the processing

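No paired analysis was possible because each kind of cell had 1 array per array type. The share of all named genes past a limit was computed in the main setting alone. The counts below therefore have no background beside them. Whether the members moved more than all named genes did was not tested. The count of members at least 2-fold lower in CM cells, 1 in the main setting, was 3 with the floor halved (Pck2, Pcx and Me1) and 3 with signals under the floor set to it (the same genes). It was 2 (Pck2 and Bcat1) with the brightest probe set per gene, on SubA alone and on SubA with SubB, and 0 with a floor at the 60th percentile over a table's probe sets, where Pck2 had no ratio and 8 members were below 0. Centring on the actin and Gapdh controls, added after the data were seen, gave 1 member at least 2-fold higher (Me2), 6 at least 1.5-fold higher and a median of 0.24, and 3 other pathway genes at least 2-fold higher. The count at least 1.5-fold higher was 5 after quantile normalization and 1 on SubA alone, and that at least 1.5-fold lower was 5 with the floor halved. The median of the members was 0.037 with the floor halved and 0.015 with signals set to the floor. Pcx had -1.54 with the floor halved, -1.14 with signals set to it and -1.44 with its control sets averaged in. Of the other pathway genes, 1 was at least 2-fold lower after quantile normalization and on SubA alone, and 0 with the floor doubled or at the 60th percentile; 2 were at least 2-fold higher with the brightest probe set. Of 345 values of 33 members other than Pcx under the alternatives, 337 stayed within a spread and 8 moved past it. The spread was the member's own SD over probe sets. For a member with 1 ratio it was the median SD of 0.32 over all named genes. In at least 1 alternative, 11 members changed sign. The 337 is no measure of robustness. A member with 1 ratio often has the same number under another floor or probe set choice. A member with a wide spread can change sign within it, as did Dlat (SD 1.04), from 0.32 to -0.27 on SubA alone. Pck2 kept its sign in each alternative that gave it a ratio, from -2.74 to -1.48. SubC, with the highest floor, gave 7 ratios from 18 member probe sets.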
